A study of Mus musculus with 2 samples.

Results

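The genes described here are 32 markers of the cell division cycle, taken by name from the deposited count tables and not by their values: 15 that mark S phase, when DNA is copied (Pcna, Mcm2, Mcm3, Mcm4, Mcm5, Mcm6, Mcm7, Tyms, Rrm1, Rrm2, Pclaf, Gins2, Cdc6, Uhrf1 and Dut), and 17 that mark G2 and mitosis, written G2/M (Mki67, Top2a, Ccnb1, Ccnb2, Cdk1, Birc5, Ube2c, Cenpf, Cenpa, Cenpe, Cdc20, Nusap1, Prc1, Hmmr, Knstrn, Cdkn3 and Tpx2). All 32 were among the 20451 genes counted, and all 32 had enough counts to be compared over all cells. The cells came from the thymus of 7-week-old mice of 2 genotypes, wild type (B6WT in the labels, WT below) and Mgl2DTR_eGFP (Mgl2DTR below). The line is named for Mgl2, a lectin gene of some dendritic cells and macrophages, for the diphtheria toxin receptor and for eGFP; its mice were given 500 ng of diphtheria toxin 48 hours before the cells were taken. The labels do not say whether the WT mice received toxin. The thymus was digested with collagenase D, cells bearing CD90.2 were depleted with magnetic beads, and the rest were sorted with antibodies to CD11c and CD11b, tagged with genotype-specific hashtags and sequenced as 10x Chromium single cells. There were 11586 WT and 7433 Mgl2DTR cells with 1 hashtag. The data hold 3 hashtags, and no cell of the gene tables was assigned to the third alone. By the labels the cells of both genotypes were pooled in 1 gene expression library, and no animals are named. There is therefore no spread between mice and no test, and every interval below covers counting error only. Toxin and genotype cannot be told apart.

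Cells that divide pass from G1 into S phase, where the MCM helicase unwinds DNA, ribonucleotide reductase and thymidylate synthase supply nucleotides and the PCNA clamp holds the polymerases. Genes of this phase are switched on by E2F factors as the retinoblastoma pocket proteins are released. The mitotic genes follow later, as the MuvB complex with B-MYB and FOXM1 acts on promoters with a cell cycle homology region (CHR) and CCAAT boxes. In the thymus most division belongs to thymocytes, but dendritic cells and the precursors of myeloid cells also divide. Resting neutrophils, plasmacytoid dendritic cells (pDC) and activated dendritic cells are known for having left the cycle.

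The promoters of the members show the letters these factors read, and 4 are printed because their genes stand for the S phase and the G2/M members whose values part company below. RefSeq windows of 300 bases (250 before to 50 after the gene's start, assembly GRCm38.p6) were found for 29 of the 32 members; Mcm4, Gins2 and Tpx2 had none. E2F letters were searched on either strand as TTCCCGC, as the form TTGGCGC and also as a further form, TTCGCGC; at least 1 of these forms was in 8 of 13 S phase and 4 of 16 G2/M windows, against 8.21% of the 27025 windows searched. CHR letters, TTTGAA or the related TTTAAA on either strand, were in 14 of 16 G2/M and 4 of 13 S phase windows, against 27.8% of the windows searched. CCAAT letters on either strand were in 13 of 16 G2/M and 10 of 13 S phase windows, against 37.9%. Among the 14287 windows of genes that were counted here, the shares were 12.6% for E2F, 21.3% for CHR and 38.1% for CCAAT letters. Matches can overlap, as E2F matches read on opposite strands do in both MCM promoters below. An E2F match also overlaps a CCAAT match in the Mcm7 and Ccnb1 windows, which are not printed. The median G2/M match to CHR lay 26 bases before the start (offset -26), and the median S phase match to E2F 46 bases before it (offset -46). The stretches run from 200 bases before to 20 after the start, 5′ to 3′ on the gene's strand, with E2F, CHR and CCAAT matches in capitals. Mcm5 (chr8:75109309-75109528, plus strand) and Mcm6 (chr1:128359686-128359905, minus strand) encode helicase subunits; Ccnb2 (chr9:70421535-70421754, minus strand) encodes cyclin B2 and Cdc20 (chr4:118437324-118437543, minus strand) an activator of the anaphase-promoting complex.
Mcm5: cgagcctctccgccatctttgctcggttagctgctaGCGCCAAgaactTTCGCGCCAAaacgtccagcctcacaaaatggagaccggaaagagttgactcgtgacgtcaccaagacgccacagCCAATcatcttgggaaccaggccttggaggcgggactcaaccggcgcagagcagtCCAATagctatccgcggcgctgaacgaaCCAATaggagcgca
Mcm6: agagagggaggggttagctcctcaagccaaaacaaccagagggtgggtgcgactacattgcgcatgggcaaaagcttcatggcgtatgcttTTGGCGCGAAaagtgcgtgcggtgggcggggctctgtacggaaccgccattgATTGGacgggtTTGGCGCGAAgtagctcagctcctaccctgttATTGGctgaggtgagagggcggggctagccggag
Ccnb2: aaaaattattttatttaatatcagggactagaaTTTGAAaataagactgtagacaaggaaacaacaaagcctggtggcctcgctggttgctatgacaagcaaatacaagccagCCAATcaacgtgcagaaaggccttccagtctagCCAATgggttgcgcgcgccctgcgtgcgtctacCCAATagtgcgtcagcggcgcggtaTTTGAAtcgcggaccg
Cdc20: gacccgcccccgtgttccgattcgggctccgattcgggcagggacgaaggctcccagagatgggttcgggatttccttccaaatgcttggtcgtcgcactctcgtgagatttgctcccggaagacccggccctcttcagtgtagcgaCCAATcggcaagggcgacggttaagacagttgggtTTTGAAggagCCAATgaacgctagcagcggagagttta
The Mcm5 stretch holds 3 E2F matches and the Mcm6 stretch 4, with no CHR match in either. Before the printed stretch, the Mcm5 window does hold a CHR match, TTTAAA at offset -221. Mcm5 is thus among the 4 S phase windows counted with CHR letters. The Ccnb2 stretch holds 2 CHR matches and the Cdc20 stretch 1, with no E2F match in either. A match is a run of letters in the window, not a measured binding site.

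Levels are counts of unique molecular identifiers (UMIs, each a captured transcript), summed over cells and scaled to a total of 1000000 UMIs (CPM). The WT cells held 116719748 UMIs in all, with a median of 7820 per cell, and the Mgl2DTR cells 71521759, with a median of 6930. Mgl2 itself, outside the members, stood at 109.2 CPM in WT cells against 17.9 in Mgl2DTR cells, a ratio of 0.164. The sorted cells also differed in make-up: all 11 of 11 neutrophil markers were higher in Mgl2DTR (9733 to 29090 CPM summed) and 14 of 16 T cell markers were lower (1365 to 657.0 CPM summed), with no marker of either list at 0 in either genotype. Cells with 2 hashtags, 9829 or 34.0% of the 28926 deposited, entered the clustering but no comparison. Which 2 of the 3 hashtags they carried was not used, so they need not be mixtures of WT and Mgl2DTR cells. No barcode was shared between the deposited gene tables.

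Over all cells, the S phase members together stood at 982.1 CPM in WT and 1141 in Mgl2DTR, a ratio of 1.16 (95% interval 1.15 to 1.17). The G2/M members together were at 1336 and 1382 CPM, a ratio of 1.03 (1.03 to 1.04). A gene was said to pass the size rule where its ratio was at least 1.5 either way and its whole interval lay on that side of 1. None of the 32 members passed it, 0 higher and 0 lower, beside 6.68% of all 14097 genes measured that were higher and 5.26% that were lower. The ratio was above 1 in 14 of 15 S phase and 14 of 17 G2/M members by summed UMIs, but in 5 of 15 and 2 of 17 with each cell thinned to 2000 UMIs, and in 4 of 15 and 0 of 17 with each cell given the same weight. The median log2 ratio was 0.19 over the S phase members and 0.06 over the G2/M members, beside -0.01 over all genes measured.

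**Figure D1:**
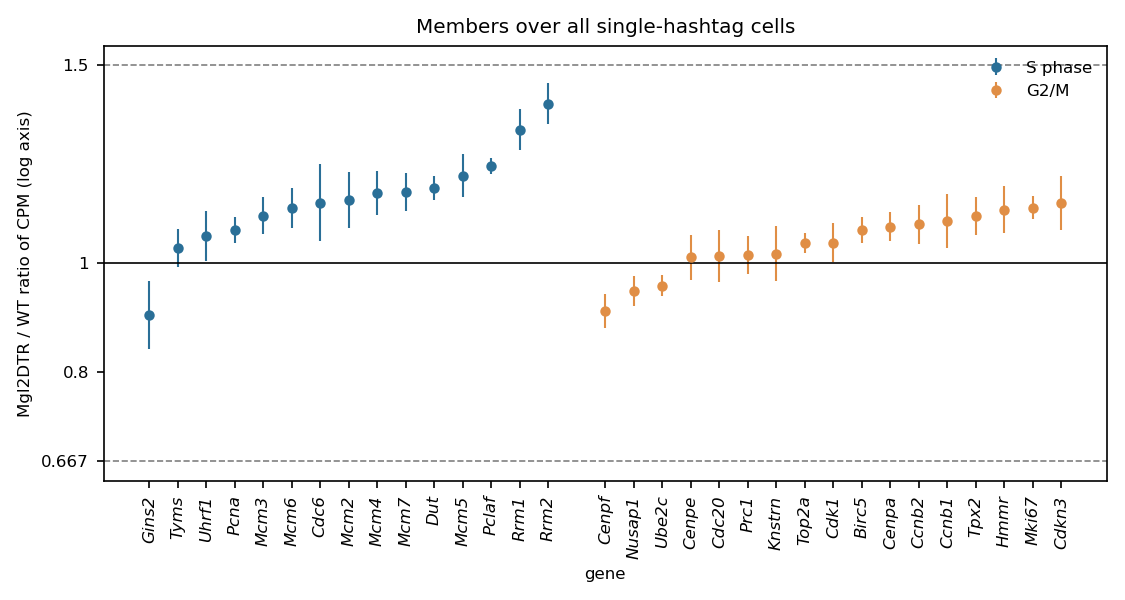
Ratio of Mgl2DTR to WT level over all cells for each of the 32 members, points with 95% counting intervals on a log axis, S phase and G2/M members in separate colours; dashed lines mark 1.5 and 0.667. All points lie between 0.900 (Gins2) and 1.39 (Rrm2), inside the dashed lines; 28 of 32 are above 1 by summed UMIs, against 7 of 32 with cells thinned to 2000 UMIs.

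Among the genes that load and run the replicative helicase, Mcm2 to Mcm7 form the ring that unwinds DNA. Mcm2 was at 25.0 CPM in WT and 28.5 in Mgl2DTR, Mcm3 at 58.7 and 64.7, and Mcm4 at 40.1 and 46.3. Mcm5 was at 40.7 and 48.7 CPM, Mcm6 at 50.2 and 56.2, and Mcm7 at 51.4 and 59.4. The 6 ring subunits thus had ratios from 1.10 (Mcm3) to 1.20 (Mcm5), all above 1 by summed UMIs. Cdc6, which loads the ring onto origins, was at 13.2 and 14.9 CPM (1.13). Gins2, a subunit of the active helicase, was at 19.8 and 17.8 CPM, and at 0.900 (0.839 to 0.964) it had the lowest ratio of the 32.

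Both subunits of ribonucleotide reductase, which makes deoxynucleotides, had the highest ratios of the 32. Rrm2, the regulatory subunit of ribonucleotide reductase, was at 42.2 CPM in WT and 58.6 in Mgl2DTR (1.39, 1.33 to 1.45), and Rrm1, the large subunit, at 43.3 and 56.9 (1.31, 1.26 to 1.37). The Rrm2 value leaned on deep cells: with each cell thinned to 2000 UMIs its ratio was 1.03. Dut, which clears dUTP, was at 130.7 and 152.4 CPM (1.17), while Tyms, which makes dTMP, was at 54.8 and 56.5 (1.03, 0.992 to 1.07). At the fork, the sliding clamp Pcna was at 115.0 and 123.1 CPM (1.07). Its partner Pclaf was at 264.9 and 323.4 CPM (1.22, 1.20 to 1.24). Uhrf1, which carries DNA methylation over to the new strand, was at 32.1 and 34.0 CPM (1.06).

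In the engine of mitotic entry, Cdk1 was at 54.6 CPM in WT and 57.0 in Mgl2DTR (1.04). Its partners were close to it in ratio, with Ccnb1 (cyclin B1) at 27.2 and 29.7 CPM (1.09) and Ccnb2 (cyclin B2) at 49.9 and 54.0 (1.08). Cdkn3, a phosphatase acting on cyclin-dependent kinases, was at 26.4 and 29.8 CPM (1.13). The chromosome-coat protein Mki67, the gene of the Ki-67 antigen, was at 145.5 and 163.1 CPM (1.12, 1.09 to 1.15). Top2a, the topoisomerase that untangles sister DNA, was at 203.0 and 211.6 CPM (1.04, 1.02 to 1.06).

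At centromeres and kinetochores, Cenpa, the centromeric histone, was at 94.5 CPM in WT and 101.8 in Mgl2DTR (1.08), while Cenpf was at 74.9 and 68.0 (0.907, 0.876 to 0.940), the lowest ratio among the G2/M members. Cenpe, a kinetochore motor, was at 42.4 and 42.9 CPM (1.01), and Knstrn, which joins kinetochores to the spindle, at 27.3 and 27.8 (1.02). These 4 therefore spread on both sides of 1. On the spindle, Tpx2, an activator of Aurora A, was at 56.1 and 61.8 CPM (1.10) and Hmmr at 35.6 and 39.8 (1.12). Nusap1, which bundles microtubules at chromosomes, was at 93.2 and 88.1 CPM (0.945), and Prc1, which bundles them at the midzone, at 59.0 and 60.0 (1.02). Birc5 (survivin), of the chromosomal passenger complex, was at 120.1 and 128.4 CPM (1.07). The anaphase-promoting complex was represented by its activator Cdc20, at 30.2 and 30.6 CPM (1.02), and its ubiquitin-conjugating enzyme Ube2c, at 196.1 and 187.3 (0.955). By summed UMIs, Gins2, Cenpf, Nusap1 and Ube2c were the 4 of the 32 with a ratio below 1 over all cells.

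The small excess in the sums turned on how cells were weighted. With each cell thinned to 2000 UMIs the S phase ratio was 0.987 and the G2/M ratio 0.884; with every cell given equal weight they were 0.966 and 0.853. Without cells called doublets they were 1.10 and 0.980. Cells with a UMI after thinning showed the same nearness: a Pcna UMI was found in 16.8% (WT) and 16.1% (Mgl2DTR) of cells, a Pclaf UMI in 15.1% and 16.2%, a Top2a UMI in 14.1% and 13.3%, and an Mki67 UMI in 12.95% and 12.3%. Over all cells, then, the direction of the summed difference was not fixed by these data.

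The cells that supplied the member transcripts differed much more than the totals did. To follow this, all 28926 cells were clustered without the members, without a wider list of cycle genes, histone genes and other genes known to move with the cycle, and without Mgl2, which gave 41 clusters; each was given a cell type name only from markers. cDC1-like cells (type 1 conventional dendritic cells, which present antigen from other cells) held 41.2% of the S phase UMIs in WT and 28.8% in Mgl2DTR, and 40.9% and 34.0% of the G2/M UMIs. T cell-like clusters held 16.3% of the S phase UMIs in WT and 5.29% in Mgl2DTR. cDC2-like cells, the type 2 dendritic cells that include the Mgl2-expressing ones, held 13.3% and 3.15% of the S phase UMIs and 15.1% and 5.23% of the G2/M UMIs. In the other direction, neutrophil-like clusters held 3.65% of the S phase UMIs in WT and 15.2% in Mgl2DTR, and 4.54% and 16.4% of the G2/M UMIs. Unnamed clusters held 9.65% and 29.2% of the S phase UMIs. Few clusters held much of this: cluster 23, an unnamed cluster led by Ifitm1, Bex6 and Phgdh, held 2.19% of the S phase UMIs in WT and 24.4% in Mgl2DTR, and cluster 21, a neutrophil-like cluster led by the granule genes Elane, Prtn3 and Mpo, held 3.99% and 15.4% of the G2/M UMIs. Cluster 3, the cDC1-like cluster with the highest member levels, held 38.8% and 32.04% of the G2/M UMIs.

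**Figure D2:**
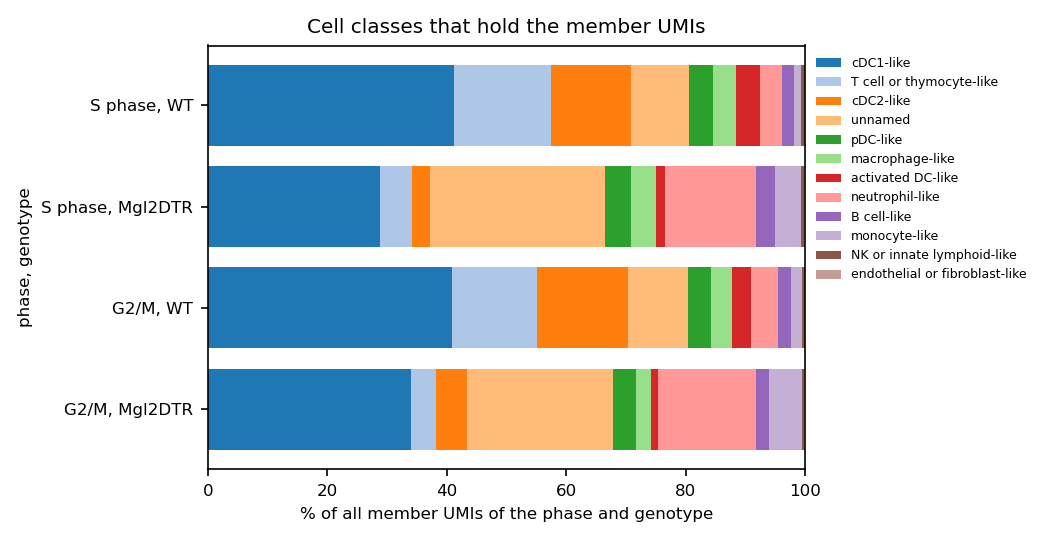
Share of the summed S phase and G2/M UMIs (%) that came from each class of clusters, as stacked bars for WT and Mgl2DTR. The cDC1-like, T cell-like and cDC2-like parts of the S phase bar were 41.2%, 16.3% and 13.3% in WT and 28.8%, 5.29% and 3.15% in Mgl2DTR, where neutrophil-like and unnamed clusters took 15.2% and 29.2%.

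With every cluster given its WT share of UMIs in both genotypes, the S phase ratio was 0.962 and the G2/M ratio 0.902. With the Mgl2DTR shares they were 1.03 and 0.791. The G2/M sum was therefore lower in Mgl2DTR at a fixed make-up under both sets of weights, while the S phase ratio lay on either side of 1. This is a weighted sum and not a trait of every cluster. Of the 24 clusters with at least 50 cells of each genotype, 11 had a G2/M ratio above 1.

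Levels of the members spread widely over clusters. Among the 33 clusters with enough WT counts to be ranked, T cell-like cluster 32, led by Dntt, the terminal transferase of early thymocytes, had the highest WT sums of both phases, 5406 CPM for S phase and 7439 CPM for G2/M. For S phase it was followed by T cell-like cluster 34 (4154 CPM), cluster 23 (3298) and monocyte-like cluster 35 (2460), and for G2/M by cluster 35 (6854), cluster 23 (6675) and cluster 34 (6397); cluster 35 held only 24 WT cells. Below them cDC1-like cluster 3 was at 2070 and 2990 CPM, and neutrophil-like cluster 21 at 1628 and 2759. The genes that led clusters 3 and 23 still included some linked to the cycle, although the listed ones were left out of the clustering. At the other end stood cells known for rest: neutrophil-like cluster 26 (81.6 and 276.9 CPM) and cluster 9 (168.7 and 220.3), pDC-like cluster 4 (234.2 and 107.3) and activated dendritic cell-like cluster 5 (168.3 and 178.9). The largest cDC1-like cluster, cluster 0, was low as well, at 337.9 CPM for S phase and 206.4 for G2/M, against its cycling counterpart cluster 3.

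**Figure D3:**
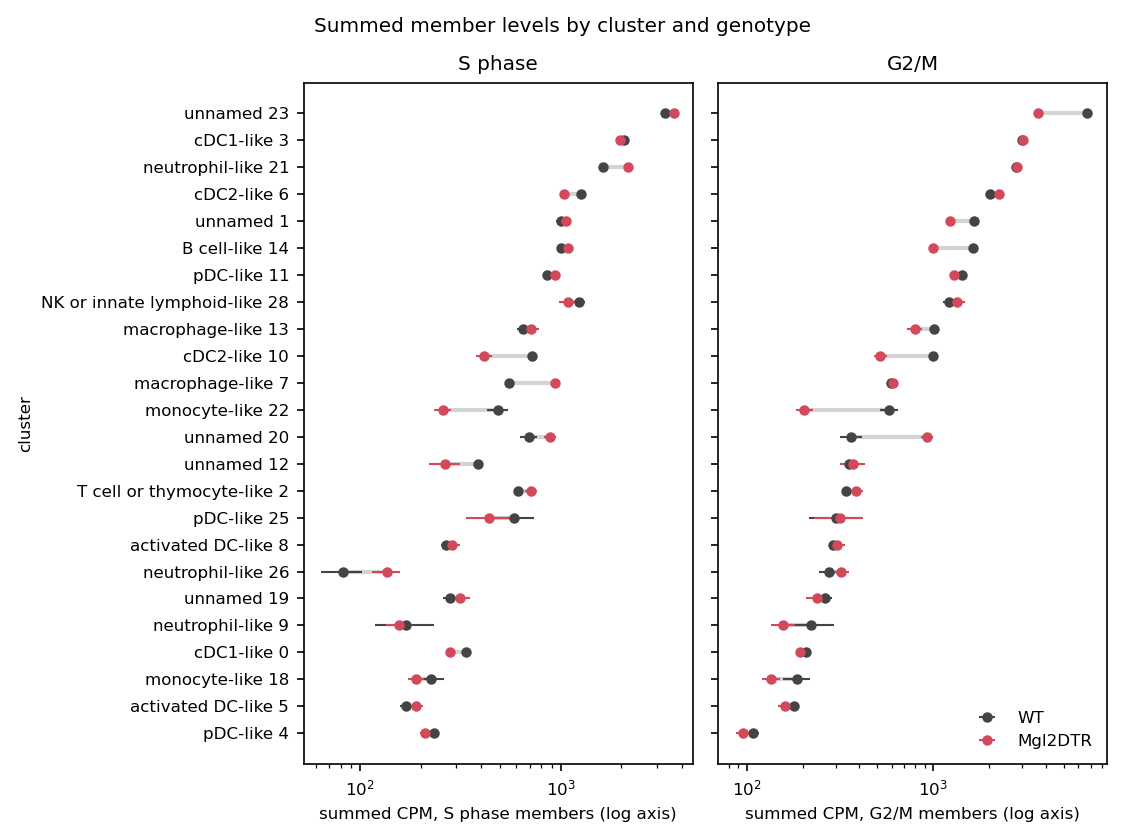
Summed level of the S phase members and of the G2/M members (CPM, log axis) in the 24 clusters with at least 50 cells of each genotype, 1 point per genotype with its 95% counting interval. Cluster 23 stands at the top, at 3298 (WT) and 3658 CPM (Mgl2DTR) for S phase, and cluster 3 and cluster 21 come next; in the S phase panel the genotypes part in opposite directions in macrophage-like cluster 7 (549.7 and 934.3 CPM) and cDC2-like cluster 10 (720.6 and 415.8 CPM).

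Single members spanned different ranges over these WT clusters. Pclaf ran from 10.0 CPM in pDC-like cluster 4 to 1448 CPM in cluster 32, 15.9 times its median cluster. Top2a ran from 11.9 to 1694 CPM (18.6 times its median) and Mki67 from 9.37 to 1008 CPM (14.49 times), both highest in cluster 34. Pcna, which also serves DNA repair, ran from 8.83 to 638.0 CPM, 6.45 times its median cluster. Gins2 and Mcm2 had the narrowest spread, with a highest cluster at 4.37 and 4.46 times the median. Across the 33 clusters, the Spearman correlation of a member with the sum of the other 31 ran from 0.78 (Mcm2) to 0.97 (Top2a), as a description of clusters that share a library and differ in depth. The 10 genes outside all lists whose WT levels ranked most like the summed members were Knl1 (0.94), Hist1h3b (0.94), Ccdc34, Ska1, Shcbp1 and Rcc1 (0.93 each), and Dscc1, Kifc1, Brip1 and Cdca2 (0.92 each), of 9200 genes ranked over the same clusters. Knl1 and Ska1 encode kinetochore proteins and Hist1h3b a replication-dependent histone.

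Within clusters, 24 of the 41 had at least 50 cells of each genotype and could be compared, and in 20 of these at least 10 members had 50 or more counts. The clusters not compared held 21.5% of the WT and 11.5% of the Mgl2DTR S phase UMIs. Of 523 member values measured in a cluster, 43 were higher and 83 lower in Mgl2DTR by the size rule. Of 253 S phase values 25 were higher and 24 lower, and of 270 G2/M values 18 were higher and 59 lower. Over all genes, 4.65% of the 153827 values measured in these 24 clusters were higher and 4.68% lower. Of the 59 lower G2/M values, 39 came from clusters 10, 14 and 23, and in cluster 23 the share of all genes that were lower was itself 18.1%. Pcna passed the rule in 0 of its 22 clusters, while Nusap1 was lower in 6 of 17, Top2a in 6 of 21 (higher in 2) and Cdc20 in 5 of 12 (higher in 1). The summed S phase level passed the rule upwards in clusters 7 and 26 and downwards in clusters 10 and 22. The summed G2/M level passed it upwards in cluster 20 and downwards in clusters 10, 14, 22 and 23.

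**Figure D4:**
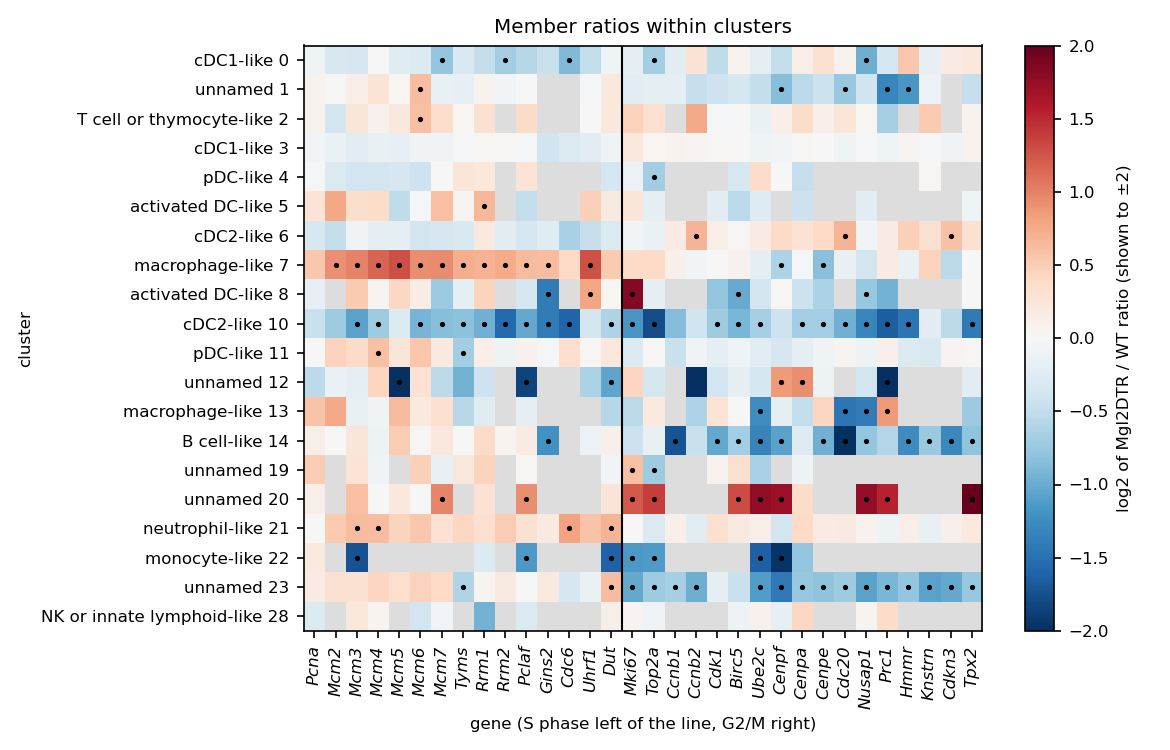
Log2 ratio of Mgl2DTR to WT level for the 32 members (columns) in the 20 clusters described (rows), colours limited to 2 either way; a dot marks a value past the size rule and grey a member with fewer than 50 counts. Macrophage-like cluster 7 shows 12 dots among the S phase members, all higher, cDC2-like cluster 10 shows 23 in all, all lower, and clusters 14 and 23 show 12 and 15 lower dots among the G2/M members.

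Macrophage-like cluster 7, marked by the complement genes C1qa, C1qb and C1qc, held 525 WT and 257 Mgl2DTR cells and was the one in which the S phase members were most often higher. Its summed S phase level was 549.7 CPM in WT and 934.3 in Mgl2DTR, a ratio of 1.70 (1.62 to 1.78), while its G2/M level was 593.9 and 611.2 CPM, 1.03 (0.974 to 1.09). All 15 S phase members had a ratio above 1, and 12 passed the size rule (Mcm2 to Mcm7, Tyms, Rrm1, Rrm2, Pclaf, Gins2 and Uhrf1), beside 5.47% of all genes measured in the cluster that were higher and 3.50% that were lower. Mcm5 was at 22.6 CPM in WT and 55.0 in Mgl2DTR, a ratio of 2.43 (1.95 to 3.05). Uhrf1 was at 14.4 and 34.7 CPM (2.41, 1.81 to 3.20), and Mcm4 at 25.5 and 57.2 (2.24, 1.81 to 2.78). Pcna was at 97.2 and 140.4 CPM (1.45) and missed the rule. Of the mitotic members, Mki67 was at 69.5 and 91.0 CPM (1.31) and Top2a at 89.9 and 118.5 (1.32). Cenpf (32.2 and 20.96 CPM, 0.651) and Cenpe (25.0 and 14.1 CPM, 0.562) were lower by the rule. Neutrophil markers were higher in the same cells, 8 of 9 measured (597.5 to 2230 CPM summed, none at 0), and 7 of 12 T cell markers were lower (313.2 to 163.0 CPM, Rag2 at 0 in Mgl2DTR); their part in the result was not tested. Cells called doublets made up 19.4% (WT) and 24.1% (Mgl2DTR) of the cluster, and without them the S phase ratio was 1.33 with 5 of the 14 S phase members still measured higher, Mcm5 was at 1.43 and short of the rule, and the G2/M ratio was 0.729 with 7 members lower. Without the cell richest in member UMIs in each genotype the S phase ratio was 1.77.

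The other macrophage-like cluster compared, cluster 13 (219 and 146 cells, led by Vcam1, Apoc1 and Selenop), did not show this excess. Its S phase level was 647.4 CPM in WT and 707.1 in Mgl2DTR, 1.09 (0.971 to 1.23), with 0 of 11 measured S phase members past the rule. Its G2/M level was 1005 and 792.8 CPM (0.789). Of its cells 62.1% (WT) and 67.1% (Mgl2DTR) were called doublets, and there was no value without them. Neutrophil markers were lower in the same cells, 7 of 8 measured (8887 to 1755 CPM summed, none at 0), and so were 5 of 11 T cell markers (804.5 to 508.9 CPM, Rag2 and Themis at 0 in Mgl2DTR); their part in the result was not tested. Cdc20 (0.368), Nusap1 (0.377) and Ube2c (0.423) were lower and Prc1 higher (1.80), beside 4.09% of genes lower and 6.79% higher. The Prc1 value came from few cells: its ratio was 0.482 without the cell richest in members and 0.801 with each cell given the same weight. Pcna was at 89.7 and 132.7 CPM (1.48), Mcm5 at 27.1 and 42.0 (1.55, interval not clear of 1), Mki67 at 119.6 and 82.3 (0.688) and Top2a at 132.1 and 151.2 (1.14).

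cDC2-like cluster 10, marked by the lectin gene Cd209d and holding the highest Mgl2 level of the dendritic clusters (824.4 CPM in WT and 257.7 in Mgl2DTR), went the opposite way. It held 548 WT and 120 Mgl2DTR cells. The S phase level was 720.6 CPM in WT and 415.8 in Mgl2DTR (0.577, 0.524 to 0.634), and the G2/M level 993.7 and 520.6 CPM (0.524, 0.481 to 0.570). No member had a ratio above 1. By the size rule 11 of 15 S phase and 12 of 17 G2/M members were lower, beside 6.02% of all genes measured there that were lower and 4.69% that were higher. The median log2 ratio of the members was -0.86, beside 0.01 over all genes. Top2a was at 134.4 CPM in WT and 39.5 in Mgl2DTR (0.294, 0.214 to 0.396), Prc1 at 43.3 and 13.7 (0.317, 0.179 to 0.525) and Cdc6 at 10.5 and 3.44 (0.328, 0.0869 to 0.882, on 4 Mgl2DTR UMIs). Mki67 was at 96.2 and 42.9 CPM (0.446). Pcna, at 99.9 and 73.0 CPM (0.731), and Mcm5, at 27.0 and 22.3 (0.826), did not pass the rule. A single Mgl2DTR cell gave 37.8% of the G2/M and 18.2% of the S phase UMIs there. Without the richest cell of each genotype the G2/M ratio was 0.344 with 16 members lower, so the difference was larger without it. Of 13 T cell markers measured, 10 were lower in the same cells (897.2 to 493.1 CPM, with Cd3g, Rag2, Dntt and Themis at 0 in Mgl2DTR) and 1 higher; without cells holding T cell marker UMIs the ratios were 0.343 for S phase and 0.549 for G2/M. Of 5 monocyte markers measured 2 were higher and 1 lower (3296 to 5979 CPM summed, F13a1 and Vcan at 0 in Mgl2DTR), with Plac8 the most abundant at 1817 and 3816 CPM. Of 3 B cell markers measured 1 was lower (1092 to 475.9 CPM summed, with Ebf1, Pax5, Cd22 and Fcmr at 0 in Mgl2DTR), and the part of either list in the result was not tested. After thinning to 2000 UMIs the ratios were 0.615 and 0.432; 1 of the 4 S phase and 5 of the 6 G2/M members still measured were lower.

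cDC2-like cluster 6, marked by Mmp12 and Epcam, also had less Mgl2 (454.1 CPM in WT and 190.2 in Mgl2DTR) and held 713 WT and 178 Mgl2DTR cells, but its summed levels were nearer to WT. The S phase level was 1254 CPM in WT and 1033 in Mgl2DTR (0.824, 0.786 to 0.864), and the G2/M level 2016 and 2261 (1.12, 1.09 to 1.16). Of the 17 G2/M members 3 were higher: Ccnb2 at 78.0 and 125.3 CPM (1.61, 1.38 to 1.86), Cdc20 at 35.1 and 56.0 (1.60, 1.27 to 1.99) and Cdkn3 at 39.5 and 59.4 (1.51, 1.21 to 1.86); Cdkn3 was at 1.44 without the richest cells, and with hashtag margins above the median 1 of these 3 still passed the rule. None was lower, beside 3.27% of genes higher and 3.78% lower. Pcna was at 149.5 and 119.4 CPM (0.798) and Top2a at 299.0 and 273.4 (0.915), and Mki67, at 209.2 and 200.6 (0.959), barely differed. Mcm5 was at 58.0 and 51.0 CPM (0.879). T cell markers were lower here too, 12 of 13 measured (596.2 to 174.4 CPM summed, Rag2 at 0 in Mgl2DTR), while of 7 neutrophil markers measured 4 were higher and 1 lower (369.3 to 764.4 CPM summed, none at 0); their part in the result was not tested.

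In cDC1-like cluster 3 (1031 WT and 538 Mgl2DTR cells), whose leading genes are themselves linked to the cycle, the S phase level was 2070 CPM in WT and 1972 in Mgl2DTR (0.953) and the G2/M level 2990 and 3018 (1.01). None of the 32 members passed the size rule, with ratios from 0.762 (Gins2) to 1.15 (Mki67), beside 1.66% of genes higher and 1.20% lower. Pcna was at 185.8 and 179.5 CPM, Mcm5 at 77.9 and 69.8, Mki67 at 289.1 and 333.8 and Top2a at 413.3 and 426.1. In cDC1-like cluster 0 (1100 and 718 cells), where levels were several times lower, the ratios were 0.833 for S phase and 0.931 for G2/M. There 5 members were lower, beside 1.67% of genes lower and 1.32% higher: Nusap1 (5.08 and 2.58 CPM, 0.508), Cdc6 (3.86 and 2.08 CPM, 0.541), Mcm7 (18.1 and 10.4 CPM, 0.577), Rrm2 (0.617) and Top2a (17.4 and 10.8 CPM, 0.621). Top2a there had a ratio above 1 (1.2498) without cells holding T cell marker UMIs. Pcna (58.2 and 55.0 CPM), Mcm5 (18.5 and 15.6 CPM) and Mki67 (19.9 and 17.5 CPM) did not pass the rule.

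Clusters 23 and 14 parted by phase, with the G2/M members lower and the S phase members near their WT level. In unnamed cluster 23 (69 WT and 245 Mgl2DTR cells), the S phase level was 3298 CPM in WT and 3658 in Mgl2DTR (1.11, 1.06 to 1.16) and the G2/M level 6675 and 3641 (0.545, 0.529 to 0.563). By the size rule 15 of 17 G2/M members and Tyms were lower and Dut higher, beside 18.1% of all genes lower and 8.17% higher in this cluster. Cenpf was at 510.2 CPM in WT and 188.5 in Mgl2DTR (0.369, 0.328 to 0.416). Ube2c was at 929.8 and 428.1 CPM (0.460), Nusap1 at 481.3 and 229.0 (0.476), Mki67 at 867.9 and 426.4 (0.491) and Top2a at 1126 and 686.9 (0.610). Dut was at 340.6 and 523.0 CPM (1.54, 1.35 to 1.75, but 1.24 after thinning), Pcna at 256.4 and 287.3 (1.12) and Mcm5 at 111.8 and 140.8 (1.26). The genotypes differed in other ways in this cluster: the median cell held 9829 UMIs in WT but 18978 in Mgl2DTR, and 8 of 10 T cell markers measured were lower (1085 to 336.0 CPM, Rag1 at 0 in WT). Their part in the result was not tested, and with under 50 WT cells left there was no value without doublets or without cells holding T cell marker UMIs.

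In B cell-like cluster 14 (193 WT and 271 Mgl2DTR cells), marked by immunoglobulin genes, the S phase level was 998.6 CPM in WT and 1080 in Mgl2DTR (1.08, 1.02 to 1.15) and the G2/M level 1627 and 999.96 (0.615, 0.580 to 0.651). By the rule 12 of 17 G2/M members and Gins2 were lower and none higher, beside 3.49% of genes lower and 5.55% higher. Cdc20 was at 48.3 CPM in WT and 10.2 in Mgl2DTR (0.211, 0.122 to 0.347), Ccnb1 at 38.9 and 11.8 (0.303, 0.180 to 0.491) and Ube2c at 208.9 and 82.6 (0.395, 0.327 to 0.476). Mki67 (194.1 and 144.8 CPM, 0.746), Top2a (255.7 and 230.0 CPM, 0.900), Pcna (103.9 and 113.1 CPM, 1.09) and Mcm5 (30.05 and 42.9 CPM, 1.43) did not pass it. The result depended on cells called doublets, 34.7% of the cluster in WT and 26.2% in Mgl2DTR: without them the G2/M ratio was 0.861, 1 of the 12 G2/M members still measured was lower, and Ube2c was at 0.914. Median UMIs per cell were 8028 and 4792, and 7 of 11 T cell markers were lower (497.1 to 306.2 CPM summed); their part in the result was not tested.

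Unnamed cluster 20 (148 WT and 218 Mgl2DTR cells), led by Xcl1, Il2rb and Ctsw of cytotoxic lymphocytes, was the cluster with a higher G2/M sum. The S phase level was 691.8 CPM in WT and 885.3 in Mgl2DTR (1.28) and the G2/M level 361.3 and 923.5 (2.56, 2.19 to 2.99). Of 9 G2/M members measured 8 were higher, with Mcm7 and Pclaf of the S phase members, beside 4.07% of genes higher and 1.67% lower. Tpx2 was at 11.99 and 55.5 CPM (4.63, 2.08 to 12.1, on 7 and 48 UMIs), Ube2c at 27.4 and 93.7 (3.42, 1.98 to 6.27) and Nusap1 at 22.3 and 75.2 (3.38). Mki67 was at 63.4 and 148.1 CPM (2.34) and Top2a at 51.4 and 134.2 (2.61), while Pcna (121.6 and 131.9) and Mcm5 (41.1 and 47.4) did not pass the rule. Few cells carried this: 1 Mgl2DTR cell gave 32.7% of the G2/M UMIs, and the ratio was 1.15 with each cell given the same weight. Without cells called doublets it was 1.5002, and only 1 of the 9 G2/M members had enough counts left to be measured, so Mki67, Top2a, Nusap1, Tpx2 and Ube2c had no value there.

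Neutrophil-like cluster 21 (104 WT and 180 Mgl2DTR cells), with the granule genes of early neutrophil precursors, had a higher S phase level, 1628 CPM in WT and 2165 in Mgl2DTR (1.33, 1.28 to 1.38), and a level G2/M sum, 2759 and 2817 (1.02, 0.991 to 1.05). Cdc6 (21.3 and 37.0 CPM, 1.74), Dut (198.1 and 316.1 CPM, 1.60), Mcm3 (77.1 and 120.0 CPM, 1.56) and Mcm4 (1.53) were higher, beside 8.08% of genes higher and 7.18% lower. Pcna (176.4 and 176.3 CPM) and Mki67 (329.7 and 327.0 CPM) did not differ beyond counting error, Mcm5 was at 74.0 and 100.4 (1.36) and Top2a at 452.0 and 368.4 (0.815). Median UMIs were 18936 in WT and 28102 in Mgl2DTR cells, and without cells called doublets the S phase ratio was 1.13 with 1 member higher. Of 8 T cell markers measured 6 were lower (243.7 to 108.3 CPM summed, Rag2 at 0 in both genotypes and Rag1 in Mgl2DTR); their part in the result was not tested. The other neutrophil-like clusters compared held few member UMIs: cluster 26, led by Retnlg, Mmp8 and Ltf, and cluster 9, led by Cxcl2, G0s2 and Hdc. In cluster 26 the S phase sum was at 81.6 and 135.3 CPM (1.66, 1.25 to 2.22), or a ratio of 1.34 with each cell given the same weight. Pclaf (26.5 and 48.0 CPM, 1.81) and Top2a (24.3 and 51.5 CPM, 2.12) were higher there, beside 4.17% of genes higher and 11.8% lower, and in cluster 9 Pcna alone was measured (42.2 and 57.6 CPM, 1.37) and not past the rule, beside 5.61% of genes higher and 10.8% lower.

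Cluster 22, led by Pf4, Ccl7, Retnla, Ccl2, Arg1, Mrc1 and Folr2, had the highest share of its markers from the monocyte list (6 of 10), but 7 of 12 macrophage markers counted as well and no monocyte marker was among its leading genes. It had the lowest G2/M ratio of the clusters compared, 577.9 CPM in WT and 203.3 in Mgl2DTR (0.352, 0.301 to 0.411), with S phase at 484.4 and 257.4 (0.531, 0.455 to 0.622). Of 10 members measured 7 were lower, beside 14.0% of genes lower and 18.9% higher: Cenpf (51.5 and 13.3 CPM, 0.257), Mcm3 (59.1 and 17.7 CPM, 0.299), Ube2c (82.0 and 26.5 CPM, 0.323), Dut, Pclaf, Mki67 (55.3 and 24.9 CPM) and Top2a (57.2 and 26.0 CPM). Few cells carried this result: all 56 WT cells were called doublets (33.2% of the 205 Mgl2DTR cells), 1 WT cell gave 64.0% of the WT G2/M UMIs, and without the richest cells the G2/M ratio was 0.572, with Top2a at 0.492 and too few counts left to measure Cenpf, Mki67 and Ube2c. With each cell given the same weight Ube2c was at 1.05 and the sums were at 0.690 and 0.693, short of the rule. In the same cells 9 of 10 neutrophil markers measured were higher and 1 lower (867.8 to 5395 CPM summed, with Ly6g, Mmp8 and Ltf at 0 in WT). Of 9 monocyte markers 7 were higher and 2 lower (2403 to 6361 CPM, Vcan and Ace at 0 in WT), and both T cell markers measured were lower (574.1 to 103.8 CPM over the list, Rag2 at 0 in Mgl2DTR); their part in the result was not tested.

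Of the activated dendritic cell-like clusters, 8 and 5 were compared, and in cluster 8 Mki67 had the highest ratio of the members past the rule. In cluster 8 (560 and 194 cells, led by Ccl17, Fabp5 and Ccl22), Mki67 was at 36.5 CPM in WT and 130.2 in Mgl2DTR (3.56, 2.87 to 4.42), on 170 and 177 UMIs, while Top2a was at 45.1 and 39.7 (0.880). Uhrf1 was higher too (26.0 and 44.9 CPM, 1.73), Pcna (42.8 and 38.2 CPM) and Mcm5 (8.81 and 11.8 CPM) did not pass the rule, and Gins2 (0.380), Birc5 (0.499) and Nusap1 (0.594) were lower, beside 10.1% of genes higher and 2.44% lower. A single cell gave 40.7% of the Mgl2DTR Mki67 UMIs; without the cell richest in member UMIs of each genotype the Mki67 ratio was 2.71, and without cells called doublets it was 4.15. The summed levels there were 268.0 and 286.1 CPM for S phase and 289.5 and 303.8 CPM for G2/M. Top2a without cells holding T cell marker UMIs had a ratio of 1.76. In cluster 5 (808 and 588 cells, led by Il12b and Gclc), Rrm1 was higher (7.48 and 11.9 CPM, 1.59, on 41 UMIs in each), beside 2.49% of genes higher and 1.23% lower, but its ratio was 1.11 without cells called doublets. There Pcna was at 26.8 and 32.5 CPM, Mcm5 at 8.21 and 5.80, Mki67 at 36.9 and 43.8 and Top2a at 27.6 and 24.1.

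The remaining clusters had few members past the rule. In T cell-like cluster 2 (1319 and 359 cells), Mcm6 was higher (50.9 and 77.0 CPM, 1.51), 1 of 26 measured, beside 2.46% of genes higher and 2.72% lower, and at 1.41 after thinning it was short of the rule. Mki67 there was at 27.3 and 37.7 CPM (1.38), Top2a at 55.9 and 70.0, Pcna at 111.8 and 117.9 and Mcm5 at 44.0 and 51.1. In pDC-like cluster 4 (835 and 785 cells), Top2a was lower (12.3 and 7.62 CPM, 0.621), beside 1.93% of genes lower and 1.47% higher, with Pcna at 61.4 and 60.2, Mcm5 at 9.60 and 7.62 and Mki67 at 11.3 and 10.4. In pDC-like cluster 11, in which all cells were called doublets, Mcm4 was higher (30.5 and 45.8 CPM) and Tyms lower (0.620), beside 1.91% of genes higher and 2.02% lower. Mki67 there was at 155.9 and 128.7 CPM, Top2a at 183.8 and 187.4, Pcna at 99.8 and 99.4 and Mcm5 at 40.0 and 47.2. In the natural killer-like cluster 28, 0 of 16 members passed the rule, beside 2.90% of genes higher and 2.13% lower, with Mki67 at 174.9 and 182.4 CPM, Top2a at 272.3 and 260.6 and Pcna at 181.5 and 149.8.

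Unnamed clusters 1, 12 and 19 complete the 20. In shallow cluster 1 (492 and 346 cells, of which 91.1% and 87.0% were called doublets, with no value without them), Mcm6 was higher (57.2 and 87.6 CPM, 1.53) and Prc1 (0.404), Hmmr (0.448), Cenpf (0.556) and Cdc20 (0.594) were lower, beside 1.63% of genes higher and 2.34% lower. Pcna there was at 130.1 and 136.4 CPM, Mcm5 at 76.3 and 78.6, Mki67 at 236.3 and 205.0 and Top2a at 305.1 and 269.1. In cluster 12 (421 and 55 cells), which carried activated dendritic and T cell genes together, Cenpa (1.90) and Cenpf (1.81) were higher and Mcm5 (15.5 and 2.09 CPM, 0.134, 0.00335 to 0.774, on 1 Mgl2DTR UMI), Prc1 (0.158, 0.00392 to 0.913, on 1 UMI), Pclaf (0.277) and Dut (0.483) lower, beside 2.99% of genes higher and 4.79% lower. A single Mgl2DTR cell gave 72.3% of the G2/M UMIs in cluster 12, and without the richest cells the G2/M ratio was 0.320 in place of 1.04, Cenpa was at 0.981 and Cenpf at 0.194. Pcna there was at 57.1 and 39.6 CPM, Mki67 at 48.2 and 64.6 and Top2a at 64.1 and 50.05. In cluster 19 (134 and 79 cells, all called doublets) Mki67 was higher (40.7 and 62.0 CPM, 1.53) and Top2a lower (47.0 and 28.6 CPM, 0.608), beside 2.86% of genes higher and 2.82% lower, with Pcna at 38.3 and 54.2. Of the clusters with fewer members measured that have not been described, Ube2c was higher in monocyte-like cluster 18 (14.53 and 28.0 CPM, 1.93, on 11 and 65 UMIs), beside 6.53% of genes higher and 7.52% lower, and pDC-like cluster 25 had 0 members measured (2.37% of its measured genes were higher and 2.37% lower).

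Levels do not say how many cells cycle, so cells were thinned to 2000 UMIs and counted as cycling with at least 3 UMIs of the S phase members or at least 3 of the G2/M members. This left out 1378 WT and 1130 Mgl2DTR cells that were shallower. The share was 24.3% in WT (2481 of 10208, exact binomial interval 23.5 to 25.1) and 23.9% in Mgl2DTR (1505 of 6303, 22.8 to 24.9), and it was 44.9% and 39.9% without thinning. The cut is a point on a range: 387 WT and 202 Mgl2DTR cells sat exactly at it and 883 and 504 a UMI below it. In neutrophil-like cluster 9, taken as the background, the share was 2.44% (1 of 41) and 0.990% (2 of 202), where cells had a median of 1744 and 1690 UMIs before thinning. Of the cycling cells, 34.3% in WT and 32.8% in Mgl2DTR reached the cut with S phase members only, 29.7% and 27.8% with G2/M members only, and 36.0% and 39.5% with both.

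In cDC1-like cluster 3 the share was 77.6% and 77.5%, and in the other large cDC1-like cluster, 0, it was 8.18% and 8.64%. In cDC2-like cluster 10 it was 16.97% (13.9 to 20.4) in WT and 7.63% (3.55 to 14.0) in Mgl2DTR, while in cDC2-like cluster 6 it was 35.4% and 33.9%. The intervals of cluster 10 met only at their ends, and those of cluster 6 overlapped widely. Within cluster 6 the mix of cycling cells differed, with S phase members only in 72 of 250 cycling cells in WT (28.8%) and 8 of 60 in Mgl2DTR (13.3%), and G2/M members only in 75 of 250 and 30 of 60. In macrophage-like cluster 7 the share was 14.7% (11.8 to 18.0) and 21.8% (16.9 to 27.3), with overlapping intervals. In neutrophil-like cluster 21 it was 77.2% and 86.6%, and both phases were reached by 41.0% and 65.2% of cycling cells. Nearly every cell of cluster 23 cycled by this count (97.1% and 91.8%), but G2/M members alone marked 31.3% of its cycling cells in WT and 9.78% in Mgl2DTR, and S phase members alone 10.4% and 26.7%. In B cell-like cluster 14 the share was 20.7% and 14.8%, in cluster 20 it was 10.2% and 11.2%, and in pDC-like cluster 4 it was 3.85% and 1.66%, near the background. In activated dendritic cell-like cluster 5 it was 3.12% and 3.88%, and in cluster 8 it was 4.04% and 8.56%. Activated dendritic cell-like cluster 16 had too few Mgl2DTR cells to be compared. Its share was 25.4% (35 of 138) and 16.7% (5 of 30), and 525 of its 693 cells carried 2 hashtags.

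**Figure D5:**
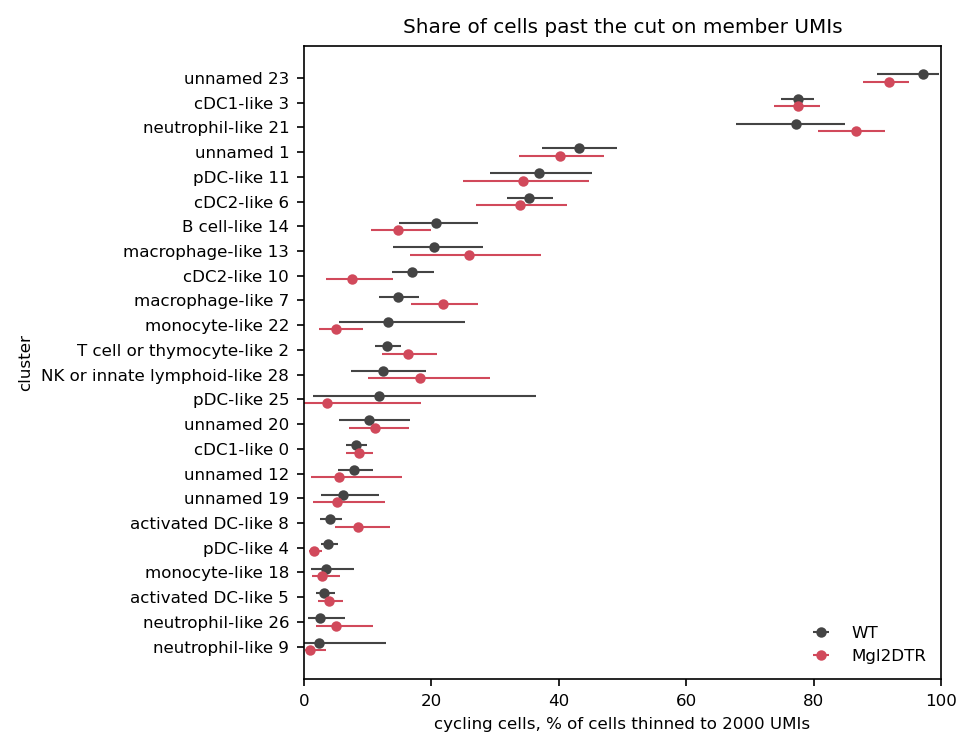
Share of cells counted as cycling (%) after thinning each cell to 2000 UMIs, by cluster and genotype, with exact 95% binomial intervals that cover counting error only. Of the 24 clusters plotted, those with at least 50 cells of each genotype, cluster 23 (97.1% WT and 91.8% Mgl2DTR), cluster 21 (77.2% and 86.6%) and cluster 3 (77.6% and 77.5%) stand above the others, and in cluster 10 the WT share (16.97%) is above the Mgl2DTR share (7.63%).

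Members were found together in the same cells in both genotypes, within and across the phases. After thinning, 58.4% of WT cells with an Mki67 UMI also held a Top2a UMI, against 7.51% of cells without one, and in Mgl2DTR the shares were 54.2% and 7.56%. Across the phases, of WT cells with a Rrm2 UMI 57.0% held an Mki67 UMI, against 10.8% of the others, and in Mgl2DTR 43.4% against 10.7%. For Cdc20 among cells with Ccnb1 the shares were 27.9% against 2.55% in WT and 23.6% against 2.55% in Mgl2DTR. For the S phase pair Pcna and Mcm6, 17.1% of WT cells with a Pcna UMI held one of Mcm6, against 6.01%, and 15.1% against 5.56% in Mgl2DTR. Across the phases again, Top2a was found in 26.0% of WT cells with Pcna against 11.7% without, and in 25.5% against 10.96% in Mgl2DTR.

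The wider list of other cycle genes held 135 measured over all cells, and 2 of them were higher and 1 lower by the size rule, beside the same 6.68% and 5.26% of all genes. Cdk6, the D-cyclin kinase that opens the way into S phase, was at 31.97 CPM in WT and 51.2 in Mgl2DTR (1.60, 1.53 to 1.68). It was among the leading genes of unnamed cluster 23, which held 69 WT and 245 Mgl2DTR cells. The part of make-up in the Cdk6 ratio was not tested. Orc1, of the origin recognition complex, was at 1.41 and 2.13 CPM (1.503, 1.20 to 1.88), and Cdkn2b, the CDK4 and CDK6 inhibitor p15, at 7.64 and 4.94 (0.646, 0.569 to 0.731). The median log2 ratio of the list was 0.09. By summed UMIs, 95 of the 135 had a ratio above 1. Among them were 31 of 38 genes of origin licensing and replication and 28 of 34 of the spindle and kinetochore. For the members such counts were 14 of 15 S phase and 14 of 17 G2/M. After thinning to 2000 UMIs they fell to 5 of 15 and 2 of 17. For the wider list no count after thinning is given here, nor the share of all genes measured with a ratio above 1. Cdkn2b is 1 of 7 inhibitors on the list that hold cells out of cycle. Of the others, Cdkn1a (p21) was at 150.3 and 148.1 CPM (0.985) and Cdkn1b (p27) at 83.9 and 82.2 (0.979). Cdkn2c was at 12.5 and 12.9 CPM (1.03), Cdkn2d at 62.3 and 73.6 (1.18), Cdkn1c at 1.13 and 0.867 (0.767) and Cdkn2a at 2.61 and 1.79 (0.685, 0.553 to 0.845). None of these 6 passed the rule. In macrophage-like cluster 7, 28 of 122 genes of the wider list were higher and 1 lower, beside 5.47% of all genes higher and 3.50% lower. In cDC2-like cluster 10, 44 of 110 were lower and 2 higher, beside 6.02% lower and 4.69% higher. In cDC1-like cluster 3, 0 of 132 passed the rule, beside 1.66% higher and 1.20% lower. Counts of this list in the other clusters, or without cells called doublets, are not given here.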

How the data were processed

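Single-cell gene counts (UMIs per gene and cell) were deposited by the authors as raw counts in tables of the whole gene expression library, with a hashtag call per cell and a hashtag margin, a score of the authors' demultiplexing. Cell Ranger 6.0.0, Seurat 4.0.4 and the build mm10 are named per the submitters' processing notes, without roles; of the annotation used for counting, and of any filter on cells before deposit, nothing is given in the sources used here. Genotype came from the hashtag call. The cells of both genotypes were pooled in 1 gene expression library and the labels name no animals, so no test was made. Of the cell annotation's columns, 8 hold values for no named sample and were not used.

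Counts were summed over cells and expressed as CPM, with exact Poisson intervals for levels and exact conditional binomial intervals for ratios (95%, counting error only). A gene was measured with at least 50 summed counts, and passed the size rule at 1.5-fold with its interval on that side of 1. With each cell given the same weight there was no interval, and 1.5-fold alone was used. All cells were clustered (2000 variable genes, 30 principal components, 20 neighbours, Leiden resolution 1, seed 1) without 217 listed cycle genes and 65 histone genes; 29 clusters were named from markers and 12 were not. Named clusters are rebuilt here and may differ from the study's. Cells with at least 12 of 50 nearest neighbours that carry 2 hashtags were called doublets (27.2% of WT and 28.1% of Mgl2DTR cells) and kept unless stated. Outside T cell-like clusters, 48.5% of WT and 38.9% of Mgl2DTR cells held 2 or more UMIs of T cell markers. The members and all lists were chosen with earlier results of these data known. In a cluster, Mki67, Top2a, Pcna and Mcm5 are named where measured, with the 3 highest and 3 lowest ratios past the rule; further members past the rule are named where they were few, after their values were seen. The size rule was also run on simulated Poisson counts, drawn per gene and genotype from a common mean. Over all cells (14097 genes) it recovered 97% of genes set 2-fold higher and 96.9% of those set 2-fold lower. In cluster 10 (8189 genes) it recovered 92% and 75%. Of unchanged genes it called 0.619% over all cells and 2.24% in cluster 10, and the interval held 1 for 92.0% and 96.0%. The simulation had no UMIs gathered in single cells, so these shares do not cover results carried by few cells. Clusters were made with scikit-learn 1.9.0, leidenalg 0.10.2 and igraph 0.11.9, intervals with scipy 1.17.1 and figures with matplotlib 3.10.9, under Python 3.11.15 with pandas 2.3.3 and numpy 2.4.6. Alternatives covered thinning, cell weights, doublets, T cell marker UMIs, hashtag margins, count minimum, fold, clustering and the cycling cut.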

Additional observations from a re-analysis of the deposited data

Results flagged for a closer look

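Cells that carried no hashtag, 78 in all and in no comparison, had a summed G2/M level of 1994 CPM (1805 to 2198), above the 1336 CPM of WT and the 1382 CPM of Mgl2DTR cells, while their S phase level was 460.6 CPM, below both. They were singled out because a signal appeared in cells outside the comparisons at a level above the WT cells. It came from 407 UMIs in 32 cells with a member UMI of that phase, and 1 cell gave 42.5% of them; without that cell the level was 1189 CPM. The median cell held 1421 UMIs.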

How the results depend on the processing

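The summed ratios over all cells, 1.16 for S phase and 1.03 for G2/M, were 0.987 and 0.884 with cells thinned to 2000 UMIs, 0.966 and 0.853 with each cell given the same weight, 1.10 and 0.980 without cells called doublets, 1.08 and 0.964 without cells holding T cell marker UMIs, and 1.02 and 0.989 with hashtag margins above the median. At fixed make-up the ratios, 0.962 and 0.902 with WT weights, were 1.03 and 0.791 with Mgl2DTR weights and 1.06 and 0.888 with clusters made with cycle genes. No member passed the size rule over all cells under any of these. Of the wider list, 2 genes higher became 1 with equal weights or without T cell marker cells and 0 with thinning, without doublets, with margins above the median or at 2-fold; 1 lower became 0 with thinning, without T cell marker cells, with margins above the median or at 2-fold. Clusters with a higher summed S phase level, 2, became 1 with equal weights, without doublets and without T cell marker cells; those with a lower one, 2 (clusters 10 and 22), became 1 under these and with cycle genes in the clustering, and 0 with margins above the median. Cluster 22 was at 0.690 with equal weights but had no value without doublets or without T cell marker cells, and neither cluster had one with margins above the median. Clusters with a higher G2/M level, 1, became 3 with thinning and 0 with equal weights or at resolution 0.5; those with a lower one, 4 (clusters 10, 14, 22 and 23), became 1 without doublets or with margins above the median, and 2 without T cell marker cells or with cycle genes in the clustering. Clusters 22 and 23 had no value without doublets or without T cell marker cells, and clusters 10, 22 and 23 none with margins above the median, so these losses are partly fewer values. The cycling share of 24.3% in WT and 23.9% in Mgl2DTR was 33.0% and 31.9% at 2 UMIs, 18.0% and 18.2% at 5 UMIs, 16.1% and 15.5% thinned to 1000 UMIs, 44.9% and 39.9% not thinned, and 21.9% and 20.2% without doublets; the ratio of shares was 0.888 not thinned. Some ratios changed side of 1 and were past the rule in the main setting or in the alternative. Without T cell marker cells these were Top2a in clusters 0 (1.2498), 5 (1.52) and 8 (1.76). With equal weights they were Prc1 in cluster 13 (0.801) and Ube2c in cluster 22 (1.05). Without the cell richest in members, an alternative chosen after seeing the data, Prc1 in cluster 13 changed side (0.482). Under the same alternative so did, in cluster 12, the summed G2/M level (0.320), Cenpa (0.981), Cenpf (0.194) and Mki67 (0.324). Other ratios changed side without passing the rule in either setting. Examples were Mcm5 in cluster 10 (0.826, but 1.27 with equal weights) and the summed G2/M level in cluster 4 (0.890, but 1.32 with margins above the median). With TTTGAA alone 1 S phase window held CHR letters, and with TTCCCGC alone 0 G2/M windows held E2F letters. Summed levels within clusters had the same call by the rule in 214 alternatives, were newly past it in 9 and no longer past it in 9. Single members had the same call in 459, were newly past in 15 and no longer past in 45. The same call does not mean the same ratio, since a ratio short of the rule could move or change side of 1. Equal weights, where 1.5-fold alone was used, gave 6 of these 15 and 14 of these 45. The cause of these changes was not tested. Among cells with 1 hashtag, each deposited gene table holds 1 genotype, so no value per table was run. In clusters, 296 values had too few cells or counts under an alternative. No paired analysis was possible because the labels name no animals. Clusters with 10 measured members or fewer, and members under 50 counts, are limited by depth.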

Other observations

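The 9829 cells with 2 hashtags were given no genotype here. They had summed levels of 992.1 CPM for the S phase members and 1282 CPM for the G2/M members. The levels were 982.1 and 1336 CPM in WT and 1141 and 1382 CPM in Mgl2DTR cells.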
